A study of Mus musculus with 4 samples.

Results

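A set of 10 markers used to recognise mammary stem and progenitor cells was examined in cell lines 8534 and 8542, which were each established from a mammary tumor of a different female MMTV-tTA/TOP-ICN1 mouse (strain FVB/N;B6). The 10 genes were taken from a fixed list, Cd24a, Cd44, Prom1, Kit, Aldh1a1, Aldh1a3, Procr, Lgr5, Bmi1 and Cd14, and all of their 20 probe sets that carry a single gene symbol were read, out of 34945 such probe sets for 18193 genes. Where a gene had several probe sets, the one with the highest mean log2 value led, and 4 of the 10 genes had only 1. In both lines the MMTV promoter drives the tetracycline transactivator, which in turn switches on a transgene for human ICN1, an always active form of NOTCH1. Treated cells received 2 µg/ml doxycycline for 24 hours, which switches ICN1 off, whereas untreated cells kept it on. The design therefore held 1 treated and 1 untreated array in each of 2 lines, 4 arrays in all. The age of the mice was not in the labels, and each line stands for 1 tumor. The cells of every array carried both transgenes, so that an effect of doxycycline itself cannot be told apart from the loss of ICN1.

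Mammary epithelium has a luminal layer and a basal layer, and stem and progenitor cells within them are told apart by surface proteins together with a few enzymes and nuclear factors. CD24 marks mammary epithelium, high CD44 is a feature of basal cells and of many tumor-initiating cell preparations, and in the mouse CD133 (Prom1) marks mature luminal cells. KIT, CD14 and the aldehyde dehydrogenase ALDH1A3 are markers of luminal progenitors, PROCR and LGR5 have been used to mark stem cells of the basal layer, and BMI1 is a Polycomb protein needed for stem cell self-renewal. NOTCH1 activity directs mammary progenitors to the luminal fate. Of the list, ALDH1A1 and ALDH1A3 are intracellular enzymes and BMI1 is nuclear, so that the genes are called stem and progenitor markers here and not surface markers.

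Values are MAS5 signals in arbitrary units, and changes are log2 differences, doxycycline minus untreated, within a line. Targets of NOTCH1 fell in both lines. Hey1, a direct NOTCH target, stood at 96.4 units in treated and 1138 units in untreated 8534 cells, and at 101 units in treated and 762 units in untreated 8542 cells, and Nrarp fell 21.6-fold and 31.6-fold. The median signal lay between 29.1 and 30.5 units on the 4 arrays, and the 3' to 5' log2 difference of β-actin between 0.25 and 0.30. Luminal markers (Krt8, Krt18, Krt19, Epcam and Cdh1) had summed signals of 16165 to 22506 units on every array. When treatment was tested with limma within the 2 lines, 4.76% of 15070 tested genes were called higher and 6.95% called lower at an adjusted p under 0.05. More than 2-fold in both lines, 3.09% of all genes were higher and 4.42% lower. RNA came from whole cultures, in which fewer cells of a type and less RNA per cell cannot be told apart. Signals under 5.52 units, the 20th percentile of all values, are described as near background.

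The count of markers called after 24 hours without ICN1 was small, as was the share over all genes. Of the 8 whose lead probe set could be tested, 1 was called higher (Cd14), beside 4.76% of all tested genes. None was called lower, beside 6.95%, and 7 did not pass. By the lead probe sets none of the 10 changed by more than 2-fold in the same direction in both lines. By that rule 3.09% of all genes were higher and 4.42% lower. Of all 20 probe sets 1 passed it, a dimmer probe set of Aldh1a3 that was lower and was called. The leads of 7 of the 8 tested markers stayed within 2-fold in each line, as did 77.0% of all tested genes. The median change of the 8 tested markers was -0.09 in line 8534 and -0.16 in line 8542, beside 0.01 and 0.00 for all tested genes. At an unadjusted p under 0.05 there were 4 of the 8 markers (Cd14, Cd44, Kit and Aldh1a3), beside 26.5% of all tested genes. The widest contrast within the list was between the lines, where Cd44 was far higher in 8534 than in 8542 cells.

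**Figure D1:**
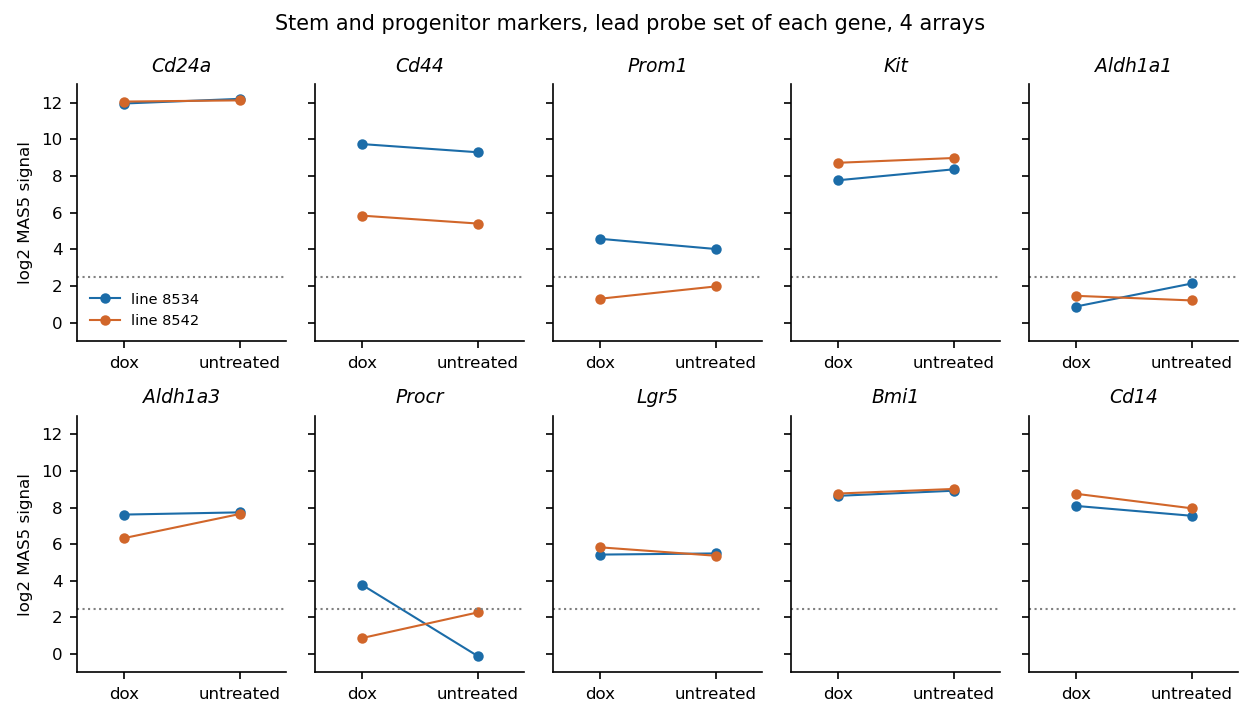
Log2 MAS5 signal (vertical axis) of the lead probe set of each of the 10 markers on doxycycline-treated (dox) and untreated arrays, where each point is 1 array and lines join the arrays of 1 cell line. The dotted line is drawn at 2.47, the background level named above. The curves of Cd44 lie about 3.9 log2 units apart in both conditions, and those of Aldh1a1 lie under the dotted line on every array.

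Cd24a, which encodes the heat-stable antigen used with CD29 to separate mammary epithelial cells, was bright on all arrays and moved little. Its lead probe set (1448182_a_at) had 3988 units in treated and 4757 units in untreated 8534 cells, and 4293 units in treated and 4496 units in untreated 8542 cells. The change averaged -0.16 ± 0.13 over the 2 lines (SD), with a 95% interval of -0.40 to 0.08 (adjusted p = 0.42, limma). The other probe sets were also lower in both lines, with a change of -0.26 for 1416034_at (adjusted p = 0.17) and with a change of -0.33 for 1437502_x_at (adjusted p = 0.122). The suffix of 1437502_x_at marks probes that can bind other transcripts. All 3 probe sets thus placed treated cells slightly below untreated cells, and the lines were nearly equal in level.

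Cd44, the gene of a hyaluronan receptor, differed far more between the lines than between the conditions by its brighter probe sets. By its lead probe set (1423760_at) it stood at 860 units in treated and 631 units in untreated 8534 cells, and at 57.3 units in treated and 42.5 units in untreated 8542 cells. Line 8534 was therefore 15.0-fold above line 8542 with doxycycline and 14.9-fold above it without. Another probe set (1434376_at) gave 24.2-fold and 17.4-fold, with 943 and 774 units in 8534 cells and 39.0 and 44.4 units in 8542 cells. The probe set 1452483_a_at gave 190 and 134 units in treated and untreated 8534 cells and was near background in 8542 cells, at 1.35 and 4.46 units. The line term of the same limma fit, tested after these values were seen, was 3.90 for the lead, 8534 minus 8542 (interval 3.54 to 4.26, adjusted p = 0.00012), and was not called without the intensity trend (0.286). It treats both arrays of a line as its replicates and compares these lines only, each from 1 tumor. By that term 2 of the 8 tested markers were called, Cd44 higher in line 8534 and Kit lower, whereas 3.28% of tested genes were called higher and 2.36% lower. Only 28 of 18193 genes (0.154%) differed between the lines by as much or more in both conditions and in 1 direction, 27 of them higher in 8534 cells.

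Doxycycline changed Cd44 little by its brighter probe sets. The lead was higher by 0.45 in line 8534 and by 0.43 in line 8542 in log2 value, a change of 0.44 ± 0.01 and an interval of 0.08 to 0.80 that missed the threshold (adjusted p = 0.142, limma). The second probe set changed by 0.29 and -0.19 (adjusted p = 0.913) and 1452483_a_at by 0.50 in line 8534 (adjusted p over both lines = 0.616), with both 8542 arrays near background. The fourth (1443265_at) lay under 5.52 units on every array and was not tested. Some markers of basal cells and of fibroblasts differed between the lines as well. Summed signals of the basal markers Krt5, Krt14 and Trp63 were 916 and 1439 units in treated and untreated 8534 cells. They were 54.9 and 40.1 units in treated and untreated 8542 cells. Krt14 gave most of this difference, with 869 and 1379 units in 8534 cells and 10.0 and 15.9 units in 8542 cells. Krt5 (28.9 and 52.9 units against 33.6 and 15.3 units) was higher in 8534 cells only when untreated. Trp63 (17.4 and 7.53 units against 11.3 and 8.85 units) was higher there only with doxycycline. The paper reports Krt14 and/or Krt5 protein in lysates of the tumor cell lines. Which cells of a culture carry Krt14 was not tested here. Summed signals of 6 fibroblast markers were 726 and 506 units in treated and untreated 8534 cells and 148 and 157 units in treated and untreated 8542 cells. The largest signal among them was that of Col1a2 (406 and 288 units in treated and untreated 8534 cells, 71.3 and 64.3 units in treated and untreated 8542 cells). In 8534 cells Col1a1 came next (271 and 151 units, against 17.2 and 34.7 units in treated and untreated 8542 cells). Pdgfra was dim and not higher in line 8534, with 3.63 to 23.6 units on the 4 arrays. The part of these markers in the difference of Cd44 was not tested.

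Prom1, the gene of CD133, was measured by 1 probe set (1419700_a_at) that was dim. It had 23.9 units in treated and 16.2 units in untreated 8534 cells, and only 2.46 units in treated and 3.93 units in untreated 8542 cells. Only line 8534 lay above the near-background level, which is a percentile of all values and not a detection call. In treated and untreated 8534 cells 44.3% and 36.6% of probe sets lay below Prom1, so that its detection there was not established. Line 8534 was 9.68-fold over line 8542 with doxycycline and 4.12-fold over it without. These ratios rest on signals near background in line 8542. The changes, 0.56 in line 8534 and -0.67 in line 8542, had opposite signs (limma adjusted p = 0.981, interval -2.10 to 1.99). Cd44 and Prom1 were the 2 markers more than 2-fold higher in line 8534 in both conditions, and none was more than 2-fold lower. Over all genes the shares were 3.86% higher and 2.07% lower. The line term of Prom1 did not pass (2.66, interval 0.61 to 4.71, limma adjusted p = 0.157).

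Promoter sequences of Cd44 and Prom1, the markers more than 2-fold apart between the lines in both conditions, are shown from RefSeq (build GRCm38.p6), each running from 250 bases before the annotated start site to 50 bases after it. Capitals mark matches, on either strand, to TGGGAA, the core recognised by the NOTCH partner RBPJ, and to TGANTCA, the AP-1 motif. The Cd44 sequence lies at chr2:102901616-102901915 on the minus strand, and the Prom1 sequence, that of 1 of its 2 starts, at chr5:44101687-44101986 on the minus strand.
Cd44: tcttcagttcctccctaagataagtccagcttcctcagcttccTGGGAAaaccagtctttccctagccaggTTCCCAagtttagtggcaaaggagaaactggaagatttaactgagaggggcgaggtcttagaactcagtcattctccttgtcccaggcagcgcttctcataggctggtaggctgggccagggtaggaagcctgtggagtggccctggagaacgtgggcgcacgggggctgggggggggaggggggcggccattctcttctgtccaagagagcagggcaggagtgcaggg
Prom1: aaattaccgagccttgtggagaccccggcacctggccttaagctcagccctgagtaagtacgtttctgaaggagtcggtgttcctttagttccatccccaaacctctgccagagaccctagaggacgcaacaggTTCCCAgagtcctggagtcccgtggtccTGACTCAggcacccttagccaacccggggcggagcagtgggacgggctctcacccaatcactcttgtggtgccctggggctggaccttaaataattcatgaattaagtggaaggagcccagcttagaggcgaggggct
Cd44 held TGGGAA at positions -207 and -179 and no TGANTCA, and the Prom1 sequence shown held TGGGAA at -116 and TGANTCA at -88, counted to the first base of the match from the start site. The sequence at the other Prom1 start held no TGGGAA and a TGANTCA at -189. Of the 10 markers 6 had a promoter in the table (Cd44, Prom1, Kit, Aldh1a1, Procr and Bmi1), with 9 sequences for their starts. TGGGAA occurred in 3 of the 9 sequences (Cd44, Prom1 and Bmi1) and in 25.6% of all 32851 sequences in the table. TGANTCA occurred in 4 of the 9 (both of Prom1, and 1 each of Aldh1a1 and Procr) and in 7.81% of all. CACGCG, a motif of HES and HEY repressors, occurred in 1 of the 9 (Bmi1) and in 9.27% of all. A match describes the letters of this window and is not a site of binding.

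**Figure D2:**
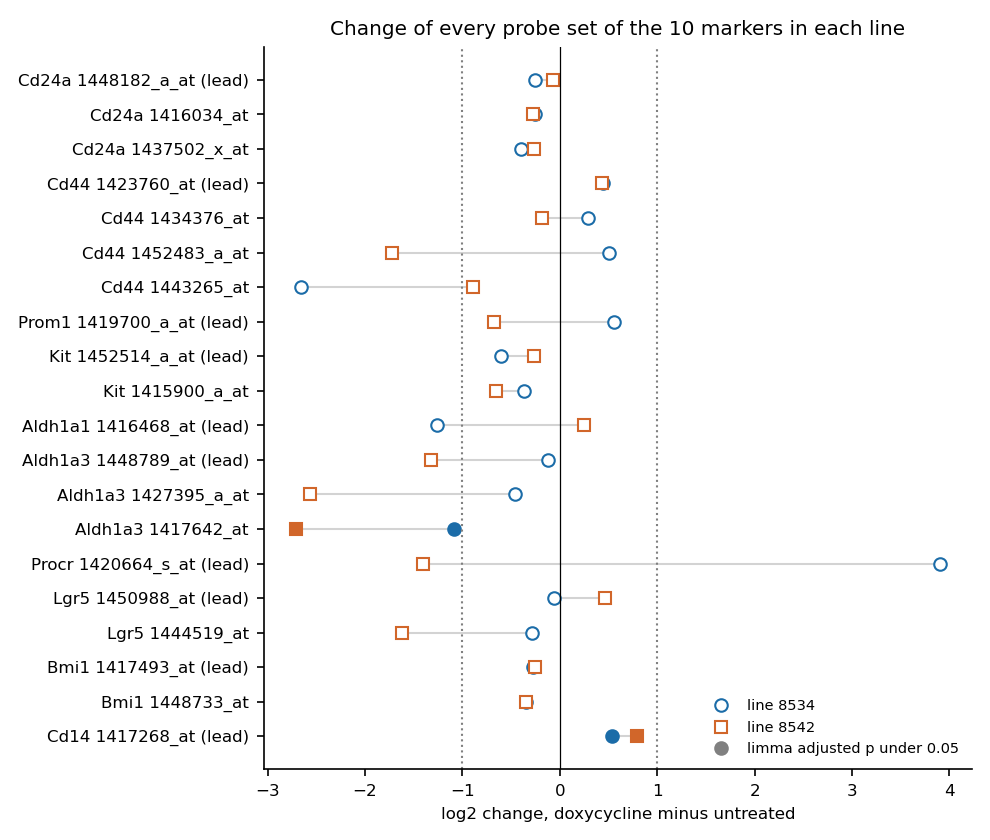
Log2 change (doxycycline minus untreated, horizontal axis) of all 20 probe sets of the markers, with a circle for line 8534 and a square for line 8542, filled where the limma adjusted p was under 0.05. Dotted lines mark a 2-fold change. The filled pairs are Cd14, right of zero in both lines, and 1 probe set of Aldh1a3, left of zero in both.

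Kit, the receptor tyrosine kinase of luminal progenitors, was slightly lower with doxycycline. Its lead probe set (1452514_a_at) had 218 units in treated and 331 units in untreated 8534 cells, and 423 units in treated and 507 units in untreated 8542 cells. This is a change of -0.43 ± 0.24 (limma adjusted p = 0.134, interval -0.78 to -0.08), and the other probe set (1415900_a_at) gave -0.51 ± 0.20 (adjusted p = 0.182). Both probe sets were lower in both lines without passing the test. Between the lines the lead was lower in 8534 than in 8542 cells by the line term (-0.79, limma adjusted p = 0.0337), a call lost when all probe sets were tested (0.06), over the mean of its probe sets (0.0947) and without the trend (0.397). Its ligand moved further. Kitl, which encodes stem cell factor, stood at 47.9 units in treated and 278 units in untreated 8534 cells, and at 57.4 units in treated and 366 units in untreated 8542 cells, 5.79-fold and 6.39-fold lower (limma adjusted p = 0.00049). Kitl was the 1 gene called of 11 tested genes of KIT signaling, where none was called higher and 10 did not pass (median change 0.03 in line 8534 and 0.08 in line 8542). By the same test 4.76% of all tested genes were called higher and 6.95% lower. Averaged over its probe sets, the change of Kitl was -1.36 (adjusted p = 0.0173) in place of -2.60. Mast cells carry KIT as well, and 4 of their markers had summed signals of 84.7 and 101 units in treated and untreated 8534 cells and 83.1 and 73.3 units in treated and untreated 8542 cells. Their part in the values of Kit was not tested.

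Cd14, the co-receptor of TLR4 for lipopolysaccharide and a luminal progenitor marker, rose in both lines. It was measured by 1 probe set (1417268_at), with 273 units in treated and 188 units in untreated 8534 cells, and 432 units in treated and 249 units in untreated 8542 cells. The rise was 1.45-fold and 1.74-fold, which averages 0.67 ± 0.18 in log2 value (SD over 2 lines, interval 0.32 to 1.02, adjusted p = 0.0353 by limma). The call was lost when all probe sets were tested (adjusted p = 0.0537), without the block for line (0.451) and without the intensity trend in the variance (0.311). The genes nearest to Cd14 in pattern, by distance between mean-centred log2 values over the 4 arrays, were Enpp5 (0.052), Myd88 (0.056) and Cr1l (0.062), a description over few arrays.

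Of 13 tested genes that act with CD14 and TLR4, 3 were called higher, none lower and 10 did not pass. The shares over all tested genes were 4.76% higher and 6.95% lower, and the list was not tested against them. The median change of the 13 was 0.61 in line 8534 and 0.39 in line 8542, beside 0.01 and 0.00 for all tested genes. Tlr2, a related receptor that also uses CD14, had 116 units in treated and 36.0 units in untreated 8534 cells, and 75.1 units in treated and 27.3 units in untreated 8542 cells (limma adjusted p = 0.00828). The other called genes encode feedback inhibitors of NF-kB. Nfkbia rose 1.70-fold in 8534 cells and 2.07-fold in 8542 cells (adjusted p = 0.00373), and Tnfaip3 rose 2.26-fold and 1.55-fold (adjusted p = 0.0195), although its probe sets averaged together did not pass (0.0708). Tlr4 had changes of 0.61 and 0.67 that did not pass (adjusted p = 0.189). Leukocytes also express Cd14. The summed signal of 9 leukocyte markers was 634 and 430 units in treated and untreated 8534 cells, and 357 and 331 units in treated and untreated 8542 cells. Among them Ptprc, the gene of CD45, had 6.08 to 7.20 units on the 4 arrays. Lyz2 had 214 and 101 units in treated and untreated 8534 cells. In treated and untreated 8542 cells Lyz2 had 32.2 and 22.5 units (limma adjusted p = 0.0984). Fcer1g had 42.7 and 5.49 units in treated and untreated 8534 cells. In treated and untreated 8542 cells Fcer1g had 37.7 and 16.5 units (limma adjusted p = 0.0568). Csf1r moved less, with 123 and 108 units in treated and untreated 8534 cells and 104 and 102 units in 8542 cells. The part of these markers in the rise of Cd14 was not tested.

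Aldh1a3, an aldehyde dehydrogenase that makes retinoic acid, was lower with doxycycline mainly in line 8542, and its probe sets differed in the size of the change. The lead (1448789_at) had 196 units in treated and 214 units in untreated 8534 cells, and 80.4 units in treated and 201 units in untreated 8542 cells, a change of -0.72 ± 0.85 (limma adjusted p = 0.175). The second (1427395_a_at) had 64.7 and 89.2 units in treated and untreated 8534 cells and 8.02 and 47.3 units in treated and untreated 8542 cells, a change of -1.51 ± 1.48 (adjusted p = 0.109). The third (1417642_at) had 37.1 and 78.6 units in treated and untreated 8534 cells and 6.67 and 43.7 units in treated and untreated 8542 cells. This last probe set fell, 2.12-fold in 8534 cells and 6.54-fold in 8542 cells (change -1.90 ± 1.15, adjusted p = 0.0398), a call lost when all probe sets were tested (0.0867), with quantile normalization (0.0517), without the block (0.463) and without the trend (0.29). The mean of the 3 did not pass (change -1.38, adjusted p = 0.109). All 3 were lower in both lines, and in line 8542 each by more than 2-fold. A difference in response between the lines could not be tested.

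Aldh1a1, the related enzyme, was near background on every array (1416468_at), with 1.83 units in treated and 4.39 units in untreated 8534 cells, and 2.75 units in treated and 2.31 units in untreated 8542 cells. It was not tested. Across the ALDH family 1 of 17 tested genes was called lower and none higher (medians 0.07 in line 8534 and 0.19 in line 8542). This was Aldh16a1, which fell 1.69-fold and 1.55-fold (limma adjusted p = 0.0451), a call lost when its probe sets were averaged (0.0706), when all were tested (0.0646) and with quantile normalization (0.0652). Of 13 tested genes of the retinoid pathway 1 was called higher and 2 lower (medians -0.05 in line 8534 and -0.23 in line 8542). Over all tested genes the shares were 4.76% higher and 6.95% lower, and the lists were not tested against them. Rxrg, a retinoid X receptor, had 5.26 units in treated and 109 units in untreated 8534 cells and 2.51 units in treated and 80.9 units in untreated 8542 cells, at least 19.7-fold and 14.6-fold lower with treated signals raised to 5.52 units (adjusted p = 0.00153). Stra6, which takes up retinol, fell 2.54-fold and 4.03-fold (adjusted p = 0.00854). Rdh10, which oxidises retinol to retinal, rose 1.83-fold and 1.86-fold (adjusted p = 0.00396).

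**Figure D3:**
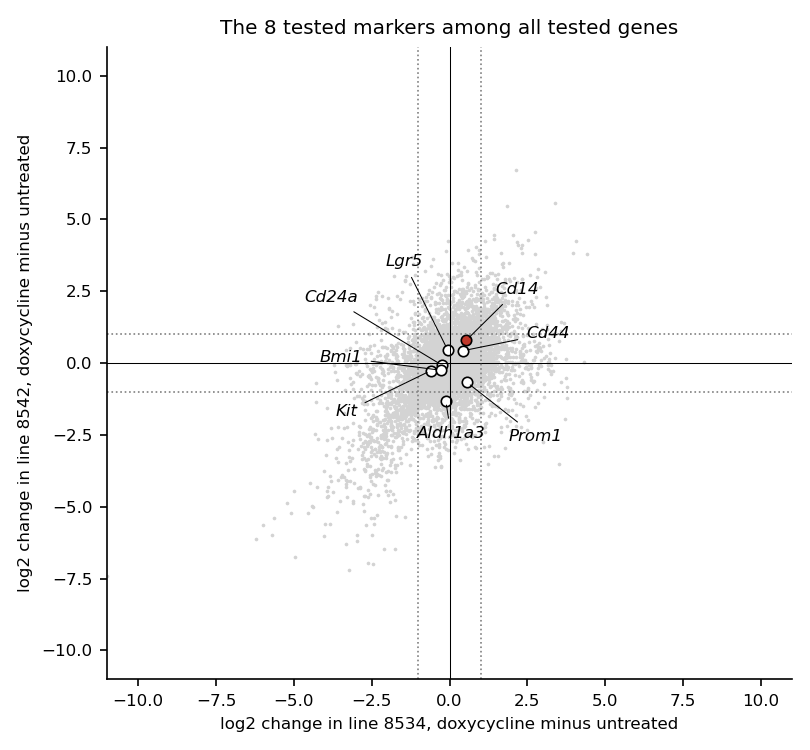
Log2 change with doxycycline in line 8534 (horizontal axis) against line 8542 (vertical axis) for the 15070 tested genes (grey) and the 8 tested markers (circles, filled where the limma adjusted p was under 0.05). Dotted lines mark 2-fold changes. Cd14 is the filled circle at 0.54 and 0.80, and no marker lies past the dotted lines in both lines.

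Lgr5, a receptor for R-spondins that strengthens WNT signaling, did not move together across its probe sets. The lead (1450988_at) had 43.2 units in treated and 45.1 units in untreated 8534 cells, and 56.9 units in treated and 41.4 units in untreated 8542 cells (change 0.20 ± 0.37, limma adjusted p = 0.742, interval -0.44 to 0.84). The other probe set (1444519_at) had 15.2 and 18.6 units in treated and untreated 8534 cells and 7.19 and 22.1 units in treated and untreated 8542 cells (change -0.95 ± 0.94, adjusted p = 0.393). Around it, 1 gene was called higher and 1 lower of 10 tested (medians -0.17 in line 8534 and -0.03 in line 8542). For all tested genes the shares were 4.76% higher and 6.95% lower. Rspo3, an R-spondin ligand, had 60.2 units in treated and 217 units in untreated 8534 cells, and 79.0 units in treated and 277 units in untreated 8542 cells, 3.61-fold and 3.51-fold lower (adjusted p = 0.00142), although its probe sets averaged together did not pass (0.158). Lgr4, a paralogous receptor, rose 1.62-fold and 2.33-fold (adjusted p = 0.0111), and it too did not pass over the mean of its probe sets (0.235).

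Procr, the gene of the endothelial protein C receptor, was near background on 3 of 4 arrays and moved in opposite directions. Its probe set (1420664_s_at, whose suffix marks probes shared by several genes) had 13.8 units in treated and 0.93 units in untreated 8534 cells, and 1.83 units in treated and 4.85 units in untreated 8542 cells. The change over both lines was 1.25 ± 3.75. Its mean value lay under the expression filter and it was not tested, and with the low signals raised to 5.52 units the ratio was 2.51 in line 8534 and 1 in line 8542. None of the 7 tested genes of the protein C pathway was called, and their medians were 0.41 in line 8534 and -0.65 in line 8542. Among all tested genes 4.76% were called higher and 6.95% lower. Endothelium also expresses Procr. The 6 endothelial markers had summed signals of 134 and 270 units in treated and untreated 8534 cells, and 159 and 150 units in treated and untreated 8542 cells. Kdr had 68.1 to 105 units on the 4 arrays, Cdh5 8.47 to 16.2 units and Tie1 0.47 to 1.26 units. Tek had 7.69 to 130 units, brightest in untreated 8534 cells, and fell 7.09-fold in 8534 cells and 2.61-fold in 8542 cells (limma adjusted p = 0.0303). The part of these markers in the values of Procr was not tested.

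Bmi1, the Polycomb repressive complex 1 subunit, was slightly lower in treated cells by nearly the same amount in each line. The lead (1417493_at) had 399 units in treated and 485 units in untreated 8534 cells, and 436 units in treated and 518 units in untreated 8542 cells. The change was -0.27 ± 0.02 (limma adjusted p = 0.277, interval -0.56 to 0.03), and the other probe set (1448733_at) changed by -0.35 ± 0.0036 (adjusted p = 0.202). Neither passed the test. Of 16 tested genes of the complex and its targets, 3 were called higher and none lower (medians -0.09 in line 8534 and 0.19 in line 8542). Shares over all tested genes were 4.76% higher and 6.95% lower. Of the 3 called genes, Cdkn2a and Cdkn2b are not subunits but CDK inhibitor genes that BMI1 represses. Cdkn2a had 156 units in treated and 71.5 units in untreated 8534 cells, and 171 units in treated and 63.6 units in untreated 8542 cells (adjusted p = 0.00799). Cdkn2b rose 1.78-fold and 3.98-fold (adjusted p = 0.0149). Pcgf5, a relative of BMI1, rose 1.57-fold and 2.90-fold (adjusted p = 0.0275), a call lost when its probe sets were averaged (0.281) and when all probe sets were tested (0.0544).

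**Figure D4:**
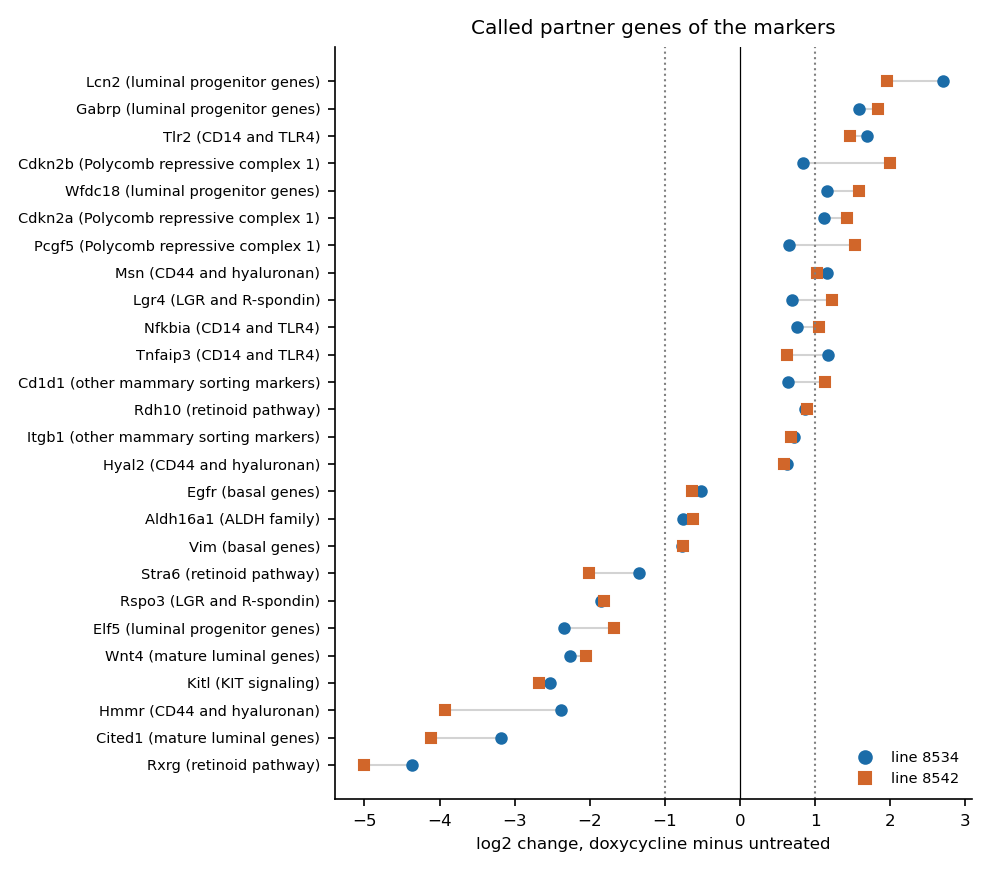
Log2 change (doxycycline minus untreated, horizontal axis) of the called genes that act with the markers or mark the same cells, with a circle for line 8534 and a square for line 8542, the list in brackets, and dotted lines at 2-fold. Genes are ordered by mean change, with Lcn2 at 2.70 and 1.95 at the top and Rxrg at -4.37 and -5.01 at the bottom.

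Other genes of the same compartments moved in both directions. Of 11 tested luminal progenitor genes, 3 were called higher, 1 lower and 7 did not pass (medians 0.10 in line 8534 and -0.00 in line 8542). Elf5, a transcription factor of luminal progenitors and alveolar cells, had 145 units in treated and 732 units in untreated 8534 cells, and 422 units in treated and 1345 units in untreated 8542 cells, 5.06-fold and 3.19-fold lower (limma adjusted p = 0.00116). The secreted proteins Lcn2 (6.51-fold and 3.86-fold) and Wfdc18 (2.23-fold and 2.99-fold) and the receptor subunit Gabrp (2.99-fold and 3.57-fold) rose (adjusted p = 0.00063, 0.00142 and 0.000522). Of 6 tested mature luminal genes none was called higher and 2 were called lower (medians -0.02 in line 8534 and -0.25 in line 8542). Wnt4, a WNT ligand made by mature luminal cells, fell 4.82-fold and 4.13-fold (adjusted p = 0.000486), and Cited1 fell at least 8.38-fold in 8534 cells, with its low treated signal raised to 5.52 units, and 17.3-fold in 8542 cells. Of 7 tested basal genes none was called higher and 2 were called lower (medians -0.58 in line 8534 and -0.22 in line 8542). Over all tested genes the shares were 4.76% and 6.95%. Among those not called, Trp63 (1.21 in line 8534 and 0.35 in line 8542) and Acta2 (1.13 and 0.29) were higher in both lines. Krt14 was lower (-0.67 and -0.67) and Krt5 was mixed (-0.87 and 1.13). Vim fell 1.71-fold and 1.69-fold (adjusted p = 0.0038), and Egfr fell 1.44-fold and 1.56-fold (adjusted p = 0.0339), a call lost when its probe sets were averaged (0.981), when all probe sets were tested (0.0519) and with quantile normalization (0.0502).

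Among 18 other surface proteins used to sort mammary cells, 2 were called higher, none lower and 16 did not pass (medians 0.32 in line 8534 and -0.05 in line 8542). For this list and those below, the shares over all tested genes were 4.76% higher and 6.95% lower. Itgb1, the gene of CD29, had 1177 units in treated and 713 units in untreated 8534 cells, and 555 units in treated and 347 units in untreated 8542 cells (limma adjusted p = 0.0129), although its probe sets averaged together did not pass (0.723). Cd1d1 rose 1.56-fold and 2.20-fold (adjusted p = 0.035), by a probe set that, like that of Wfdc18, can bind related transcripts, and was not called when all probe sets were tested (0.0589). Itgb3, the gene of CD61, was singled out after its values were seen, because CD61 divides luminal progenitors from mature luminal cells. It had 230 units in treated and 214 units in untreated 8534 cells, and 373 units in treated and 168 units in untreated 8542 cells, and did not pass (adjusted p = 0.184). Of 13 tested genes around CD44 and hyaluronan 2 were called higher and 1 lower (medians 0.12 in line 8534 and 0.21 in line 8542). Msn, which links CD44 to the actin cytoskeleton, rose 2.23-fold and 2.03-fold (adjusted p = 0.00193), and the hyaluronidase gene Hyal2 rose 1.54-fold and 1.49-fold (adjusted p = 0.0457), a call lost when all probe sets were tested (0.0631) and with median centring (0.0529). Hmmr, a hyaluronan receptor that also acts on the mitotic spindle, had 56.3 units in treated and 292 units in untreated 8534 cells, and 23.4 units in treated and 356 units in untreated 8542 cells (adjusted p = 0.00222). Of 5 tested relatives of CD24 and CD133 none was called (medians 0.28 in line 8534 and -0.41 in line 8542).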

How the data were processed

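RNA from 2 cell lines, each with and without doxycycline, was measured on 4 Affymetrix arrays. The authors deposited log2 values of MAS5 signals. The base was read from the values, since base 2 alone gives trimmed means near 100 units (97.7 to 101.8 units here). The MAS5 version is not given in the sources used here. Values were used as deposited. After 64 control probe sets were left out, 34945 of 45037 probe sets had 1 gene symbol, 932 several and 9160 none. Changes were taken within each line. limma 3.58.1 (R 4.3.3) was fitted with terms for line and treatment to 33778 probe sets, those with a mean log2 value of 2.94 or more (the 25th percentile). The eBayes step used an intensity trend, and p-values were adjusted by the Benjamini-Hochberg method over all 33778. The line term of this fit was tested after the data were seen. The fit was tested on simulated data. The model left 1 residual degree of freedom (6.18 prior). Arrays of 1 line are paired because they come from the same line, and they deviated together (r = 0.36 over probe sets). Nothing says that the arrays are separate cultures, so p-values measure only the spread between these arrays, which may be technical. The markers and gene lists were chosen with earlier results of these data known. Named were all 10 markers, up to 4 called genes of each list with the largest changes, Hey1 and Nrarp as checks, and the 3 genes nearest to a called marker. Alternatives were other filters, a floor or pseudocount at the 20th percentile (5.52 units), quantile normalization, median centring, no trend, no block, the mean of all probe sets, a 1.5-fold rule and leaving out each line. Sequences came from the RefSeq promoter table. A planned comparison of protein sequences was not run.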

Additional observations from a re-analysis of the deposited data

Results flagged for a closer look

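In 6 of the 20 probe sets of the markers doxycycline moved the lines in opposite directions, with 1 array for each line and condition, and the difference was not tested. By lead probe sets it was 4 of the 10 markers, beside 35.4% of all genes. The difference, line 8542 minus line 8534 on the log2 scale, was -5.30 for Procr (1420664_s_at, changes of 3.90 in line 8534 and -1.40 in line 8542) and -2.22 for Cd44 (1452483_a_at, 0.50 and -1.72). It was 1.51 for Aldh1a1 (1416468_at, -1.26 and 0.25) and -1.23 for Prom1 (1419700_a_at, 0.56 and -0.67). It was 0.52 for Lgr5 (1450988_at, -0.06 and 0.46) and -0.47 for Cd44 (1434376_at, 0.29 and -0.19). In the first 4 of these at least 2 of the 4 arrays lay under 5.52 units, whereas Lgr5 and Cd44 by 1434376_at were above it on every array.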

How the results depend on the processing

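Of the markers called higher, the count was 1 (Cd14) and became 0 when all probe sets were tested, without the intensity trend and without the replicate block, that is, without the pairing by line. By its lead probe set, or the mean of its probe sets, no marker was called lower under any alternative (1 other probe set of Aldh1a3 was called lower). By the 2-fold rule no lead passed in both lines, and with 1 line left out the count of higher ones was 0 to 1 and that of lower ones 1 to 2. Those were Procr (3.90 in line 8534, -1.40 in line 8542), Aldh1a1 (-1.26 in line 8534) and Aldh1a3 (-1.32 in line 8542). Only the lead of Aldh1a3 lay above 5.52 units on every array. Signs turned for Cd44 (-0.47) and Lgr5 (-0.38) over the mean of all probe sets, and for Prom1 with the floor (0.28) and the pseudocount (0.10), none of them called. The mean of Cd44 takes in 1443265_at, under 5.52 units on every array, and 1452483_a_at, under it on both 8542 arrays. Its brighter probe sets, 1423760_at and 1434376_at, changed by 0.44 and 0.05. The line difference, 8534 minus 8542, turned for Cd24a (0.064) and Lgr5 (0.14) over the mean of all probe sets, neither called. Of 28 calls for partner genes, Hey1 and Nrarp (alternatives chosen after seeing the data) 23 held when all probe sets were tested, 21 over the mean of probe sets, 3 without the block and 0 without the trend, where no probe set passed (lowest adjusted p = 0.223). Over all probe sets limma called 1245 higher and 1872 lower, 9 and 83 without the block, and 434 and 747 of 14275 genes over the mean of probe sets. Leaving out a line leaves no residual degrees of freedom, so that limma was not run. Low signal limits Aldh1a1, Procr and Prom1, and 1 array per line and condition limits every value.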
